A study of Mus musculus with 58 samples.

Results

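The repressor arm of the circadian clock and its PAR bZIP output factors were followed in lung, liver and forestomach of mice given indeno(1,2,3-cd)pyrene (IP), a polycyclic aromatic hydrocarbon. The 10 genes were the period genes Per1, Per2 and Per3, the cryptochrome Cry2, the nuclear receptors Nr1d1 and Nr1d2 (REV-ERB alpha and beta), the transcription factors Dbp, Tef and Hlf, and the repressor Bhlhe41 (DEC2). They were taken from 20018 gene names on the array through the accession of each probe, and 12 probes represented them, with a pair each for Dbp and Bhlhe41. They were chosen by their role in the clock with their dose differences from vehicle on the same arrays already known, so those differences are given below as descriptions and not as independent tests.

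Male Muta™Mouse animals, a transgenic strain that carries a lacZ reporter for mutation assays, were about 13 weeks old. Gavage on 28 days delivered either the olive oil vehicle alone or oil that carried IP, at 12.5, 25 or, in the highest group, 50 mg/kg-bw/day. The animals lived on a light/dark cycle of 12 h each, and tissues were taken 72 h after the last dose. Each dose group held 5 mice in every tissue. The vehicle group held 5 mice in lung and 4 in liver and forestomach, where vehicle mouse 4 had no array, so 19 of 20 mice were measured in all 3 tissues and 58 arrays were used. The study's methods describe the loss of an IP animal to a lung puncture at gavage and a smaller vehicle group at necropsy. Whether the lung labelled vehicle mouse 4 came from that animal is not given in the sources used here, so its tissue may have been collected differently, and the results that use it are also given without it. RNA of each mouse came from a random section of the tissue and carried the Cy5 label. A reference pooled from 11 mouse cell lines carried Cy3 on the same array. Every value below is therefore log2(sample/reference) for a probe after loess normalization, and levels were compared between mice and tissues for the same gene but never between genes. The clock time of tissue collection was not given in the sources used here. In bulk tissue, fewer cells of a type and less RNA per cell cannot be told apart.

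The mammalian clock is a transcriptional feedback loop present in most tissues. The CLOCK and BMAL1 (Arntl) proteins, or NPAS2 in place of CLOCK, bind E-box sequences and switch on the Per and Cry genes, whose proteins return to block that activity; REV-ERB proteins in turn repress Arntl and Nfil3 through RORE sequences. DBP, TEF and HLF are PAR bZIP factors that bind D-box sequences and drive rhythmic output, for example xenobiotic and bile acid metabolism in liver, and NFIL3 competes with them for the same sites. Because transcript levels of these genes swing over the day, with Dbp among the widest, a single sample reads both the state and the phase of the clock.

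The upstream sequences of 9 of the 10 genes were found in the RefSeq table (GRCm38.p6, 250 bases before the transcription start, strand of the gene), and Per2 was not in it. They were searched on both strands for the E-box CACGTG, the related E'-box CACGTT, the D-box TTATGTAA or TTACGTAA, and the RORE TAGGTCA or TGGGTCA. These motifs did not overlap one another in the windows shown. An E-box lay in the windows of Per1, Tef and Bhlhe41, at 166, 127 and 153 bases before the start, against 6.02% of all 32817 promoter windows. An E'-box lay in Nr1d1 and Cry2, at 28 and 166 bases before the start, against 3.85% of windows, and Per3 alone among the 9 held D-boxes, at 205 and 158 bases, against 0.929%. No RORE was found in any of the 9, against 5.39%, and Dbp, Nr1d2 and Hlf held none of the 4 motifs in this window. A match of letters is a description and not a measured binding site.

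The 5 windows below are shown, for the gene on which the results turn most, Dbp, and for 4 genes with a motif, so that the sites can be read in place; capitals mark the motif, which reads in reverse complement for the E'-box of Nr1d1. They are Dbp (chr7:45704997-45705246, plus strand), Nr1d1 (chr11:98775378-98775627, minus strand), Per1 (chr11:69098699-69098948, plus strand, the first of its 2 starts), Per3 (chr4:151044666-151044915, minus strand) and Tef (chr15:81802423-81802672, plus strand, the first of its 2 starts).
Dbp: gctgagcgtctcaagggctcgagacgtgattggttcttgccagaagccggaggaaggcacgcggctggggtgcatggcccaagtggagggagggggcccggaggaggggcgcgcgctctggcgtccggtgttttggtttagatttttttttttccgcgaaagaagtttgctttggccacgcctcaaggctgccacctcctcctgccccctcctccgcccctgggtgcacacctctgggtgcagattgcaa
Nr1d1: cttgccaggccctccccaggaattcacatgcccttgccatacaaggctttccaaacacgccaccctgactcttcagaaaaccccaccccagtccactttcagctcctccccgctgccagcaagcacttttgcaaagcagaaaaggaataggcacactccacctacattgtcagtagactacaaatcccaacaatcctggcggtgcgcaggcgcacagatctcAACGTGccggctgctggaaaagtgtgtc
Per1: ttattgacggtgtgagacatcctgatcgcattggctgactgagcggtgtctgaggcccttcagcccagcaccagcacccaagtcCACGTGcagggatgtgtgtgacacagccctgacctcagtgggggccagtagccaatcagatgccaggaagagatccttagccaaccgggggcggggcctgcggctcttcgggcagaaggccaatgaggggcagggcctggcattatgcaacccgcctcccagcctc
Per3: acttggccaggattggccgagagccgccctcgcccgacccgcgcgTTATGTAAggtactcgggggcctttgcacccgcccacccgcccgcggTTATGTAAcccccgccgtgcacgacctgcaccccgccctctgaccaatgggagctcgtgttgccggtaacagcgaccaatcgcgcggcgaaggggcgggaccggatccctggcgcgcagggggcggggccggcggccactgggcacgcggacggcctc
Tef: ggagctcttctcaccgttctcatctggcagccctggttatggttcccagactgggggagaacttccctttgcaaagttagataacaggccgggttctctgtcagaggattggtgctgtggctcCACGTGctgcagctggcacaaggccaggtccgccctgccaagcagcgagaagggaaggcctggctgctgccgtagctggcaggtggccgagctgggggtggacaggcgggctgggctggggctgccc

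The genes lie at the following GRCm38.p6 positions in RefSeq, where each is a protein-coding gene matched by the mRNA accession of its probe. Dbp (NM_016974) spans chr7:45705100-45710203, Nr1d1 (NM_145434) chr11:98767932-98775377 and Nr1d2 (NM_011584) chr14:18204056-18239106. Per1 (NM_011065) spans chr11:69095108-69109965, Per2 (NM_011066) chr1:91415977-91459351, Per3 (NM_011067) chr4:150997018-151044707 and Cry2 (NM_009963) chr2:92403646-92434085. Tef (NM_017376) spans chr15:81802673-81826863, Hlf (NM_172563) chr11:90336535-90390917 and Bhlhe41 (NM_024469) chr6:145858243-145865420.

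Between 53% and 90.7% of probes were above background on a lung array, 37.6% to 78.9% on a liver array and 43% to 85.9% on a forestomach array. In liver the vehicle arrays lay between 37.6% and 41.7%, those of mice 9, 13, 15, 16 and 20 between 66.6% and 78.9%, and the other dosed livers between 38.2% and 45%. Detection in liver was therefore uneven between the vehicle and dosed mice. Per1, Cry2, Nr1d1, Nr1d2, Dbp, Tef and Hlf were above background on all 58 arrays. Per2, Per3 and Bhlhe41 were dim outside lung. Per2 was above background on 17 of 19 liver and 11 of 19 forestomach arrays, Per3 on 6 and 10, and Bhlhe41 on 8 and 11 (19 of 20 in lung); Bhlhe41 was above background in none of the 4 vehicle livers, so no liver fold is given for it. The Nr1d2 spot of vehicle mouse 5 in liver was marked as an outlier by the scanner and left out, which leaves n = 3 in that group. Marker means were highest in the tissue of their label. The 6 lung markers averaged 5.57 to 6.33 in lung and -0.05 to 0.15 in liver, the 6 liver markers averaged 7.40 to 8.71 in liver, and the 6 squamous epithelium markers averaged 3.08 to 4.07 in forestomach. On forestomach arrays the liver marker mean was 0.33 to 3.95 and the lung marker mean 0.79 to 2.36. As few as 1 of the 6 markers of either list was above background on a forestomach array at 25 mg/kg-bw/day. Whether these values are signal of those tissues was not tested. Glandular stomach markers (5 of 6 measured) averaged 0.76 to 6.49 among the forestomach arrays.

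In vehicle mice, the place of highest expression differed from gene to gene. Per1, a period gene that responds quickly to hormones, was highest in lung, Hlf was highest in liver, and Cry2, the long-lived repressor of CLOCK-BMAL1, stepped down from lung to liver to forestomach. Dbp, Nr1d1, Per3 and Bhlhe41 were not called between any pair of tissues. These comparisons used the limma fit over all 58 arrays, with a call at an adjusted p of 0.05 and a 1.5-fold difference. Liver arrays lay on other slides than lung and forestomach arrays and were read with another version of the scanner software. Lung arrays lay in row 1 of a slide and forestomach arrays in row 2. The part of slide and software for liver, and of row for lung against forestomach, cannot be told apart from the tissue.

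**Figure D1:**
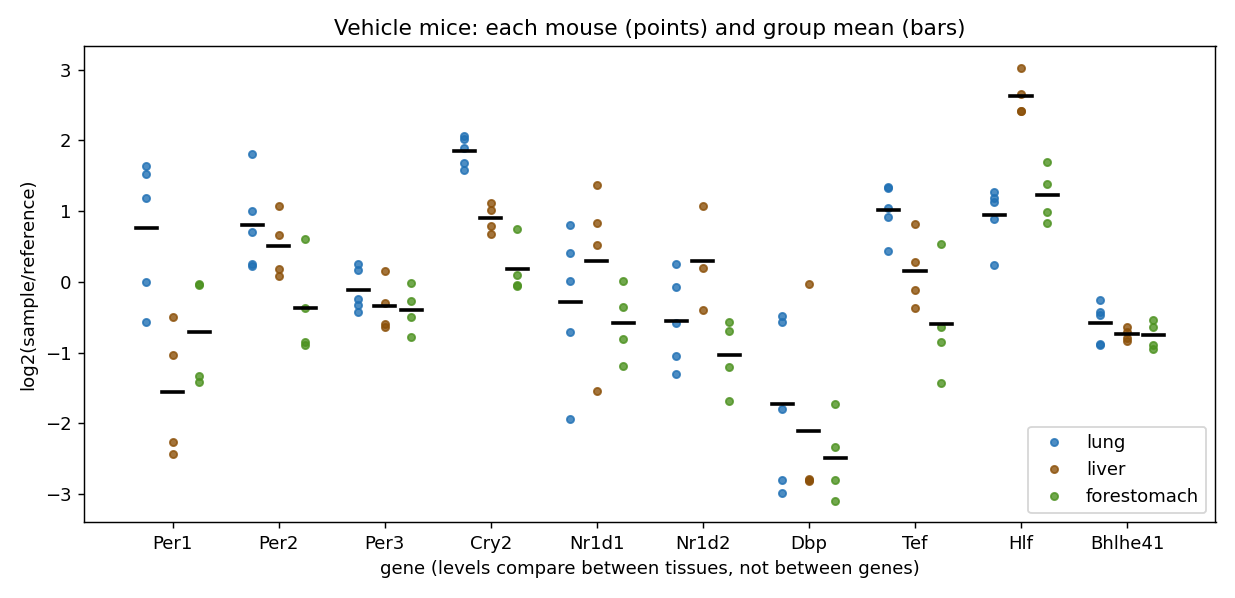
Level of the 10 genes in vehicle mice as log2(sample/reference), with 1 point per mouse and the group mean as a bar, in lung (n = 5), liver (n = 4) and forestomach (n = 4). Per1 and Cry2 sit highest in lung and Hlf highest in liver, and the points of Dbp and Nr1d1 spread over more than 1 log2 unit in each tissue.

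Per1 read -0.56, 1.19, 1.64, 1.52 and 0.00 in the lungs of vehicle mice 1 to 5 and -2.43, -1.03, -0.49 and -2.26 in the livers of mice 1, 2, 3 and 5. In each of the 4 mice with both tissues the lung value was the higher one, although the groups overlapped through mouse 1 in lung and mouse 3 in liver. The means were 0.76 ± 0.98 (SD, n = 5) in lung, -1.55 ± 0.95 (n = 4) in liver and -0.70 ± 0.77 (n = 4) in forestomach. Lung exceeded liver by 2.31 on the log2 scale (4.96-fold, SE 0.42, limma adjusted p = 6.26e-06) and forestomach by 1.46 (2.76-fold, adjusted p = 0.00456), while liver and forestomach did not pass the test (-0.85, 95% interval -1.73 to 0.04, adjusted p = 0.155).

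Cry2 averaged 1.85 ± 0.21 in lung, 0.90 ± 0.20 in liver and 0.19 ± 0.38 in forestomach. All 3 neighbours in that order differed: lung was 1.93-fold above liver (limma adjusted p = 3.3e-05), liver was 1.64-fold above forestomach (adjusted p = 0.00339), and lung was 3.15-fold above forestomach (adjusted p = 2.08e-10). With the scanner's own log ratio the lung to liver difference was 0.55 (adjusted p = 0.0265), under 1.5-fold, and was not called. Tef, the PAR bZIP factor named for thyrotroph cells, averaged 1.01 ± 0.37 in lung, 0.15 ± 0.52 in liver and -0.59 ± 0.83 in forestomach. Lung exceeded liver 1.82-fold (limma adjusted p = 0.0246) and forestomach 3.04-fold (adjusted p = 4.2e-05), but liver and forestomach, 0.74 apart, did not pass (adjusted p = 0.0871). The lung to liver call for Tef was lost without vehicle mouse 4 (0.78, adjusted p = 0.0609) and without mouse 5 (0.71, adjusted p = 0.135), while the other calls of lung against liver or forestomach held without mouse 4 (for Per1 against forestomach, 1.27, adjusted p = 0.0212).

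Hlf, the hepatic leukemia factor, was highest in liver instead. It averaged 2.63 ± 0.29 in liver, 1.23 ± 0.39 in forestomach and 0.94 ± 0.42 in lung. Liver was 3.22-fold above lung (limma adjusted p = 2.44e-06) and 2.64-fold above forestomach (adjusted p = 0.000174), and forestomach and lung did not differ beyond their spread (-0.29, adjusted p = 0.517). Per2 averaged 0.80 ± 0.65 in lung, 0.50 ± 0.46 in liver and -0.38 ± 0.70 in forestomach. It was above background in all 5 vehicle lungs and all 4 vehicle livers but in 1 of 4 vehicle forestomachs, so the forestomach value rests mostly on arrays at background and no fold is given. On the log2 scale lung was 1.18 above forestomach (limma adjusted p = 0.00161) and liver 0.88 above it (adjusted p = 0.0288).

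Nr1d2 was called only between liver and forestomach. It averaged 0.29 ± 0.73 (n = 3) in liver, -0.55 ± 0.65 in lung and -1.03 ± 0.51 in forestomach, with liver 2.51-fold above forestomach (limma adjusted p = 0.0109). Nr1d1 averaged 0.30 ± 1.28 in liver, -0.28 ± 1.08 in lung and -0.58 ± 0.53 in forestomach. Dbp averaged -1.72 ± 1.19 in lung, -2.11 ± 1.38 in liver and -2.48 ± 0.60 in forestomach. For Dbp the 95% interval ran from -0.65 to 2.17 for lung minus forestomach and from -1.11 to 1.86 for liver minus forestomach, so tissue differences of that size could not be detected with these mice.

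Of the 10 genes, 3 were higher and 1 was lower in lung than in liver, where 15.7% and 11.1% of all probes were. Against forestomach, 4 were higher in lung (10.6% of all probes) and 0 lower (8.9%), and 4 were higher in liver (9.89%) and 0 lower (12.8%); at an unadjusted p under 0.05 limma also placed 0 of the 10 lower in either tissue than in forestomach. The 4 liver calls against forestomach depended on the loess normalization and on vehicle mouse 3. With arrays centred on their median 0 of them passed, and without mouse 3 only 1 did (Hlf). Centring on the median also ended the lung to liver call for Hlf (-0.40, adjusted p = 0.29). A fit with the mouse as a block, which used the pairing of tissues within a mouse, kept all of these calls (for Per1, lung minus liver 2.30, adjusted p = 2.46e-06).

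The genes varied strongly among mice given the same dose. Within dose groups the SD of Dbp was 1.1 in lung and 1.34 in liver, larger than that of 99.9% of probes in each tissue, and 0.75 in forestomach, larger than that of 96.4%. The median SD over probes was 0.17 in lung, 0.27 in liver and 0.23 in forestomach. Nr1d1 (0.72 in lung, 1.04 in liver), Per1 (0.69 and 0.75) and Nr1d2 (0.56 and 0.70) followed. Cry2 was the steadiest of the genes in lung and liver, with an SD of 0.21 (72.1% of probes smaller) and 0.27 (50.8%), and Per3 in forestomach at 0.23 (46.6%). High SDs of Per3 and Bhlhe41 in liver include arrays at background. The low SD of Per3 in forestomach does as well, with 10 of 19 arrays above background, so it does not show a steady gene.

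Liver Dbp shows the shape of this spread. The vehicle livers of mice 1, 2, 3 and 5 read -2.80, -2.81, -0.03 and -2.78, and the livers of mice 6 to 10 at 12.5 mg/kg-bw/day read -2.88, 1.01, 0.04, -2.85 and -2.42. Mouse 3 stood far above its group mates, and mice 7 and 8 stood far above theirs.

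Each mouse's deviation from its dose group mean was then compared between its tissues, a measure that the group means do not enter. Between lung and liver r was above 0 for 9 of the 10 genes, and 6 of them passed an adjusted p of 0.05. Lung and liver arrays shared no slide. Nr1d1, the REV-ERB that represses Arntl, gave Pearson r = 0.84 and Spearman rho = 0.79 over 19 mice (permutation p = 0.00078 and 0.00136, adjusted p = 0.0207 and 0.0136 over 30 relations). Without the pair of mice farthest in lung, r was 0.75, and after the slide means were also removed it was 0.80.

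Per1 gave r = 0.83 and rho = 0.76 between lung and liver (permutation p = 0.00226 and 0.00446, adjusted p = 0.0207 and 0.0268), and 0.72 without the pair of farthest mice. Hlf gave r = 0.71 and rho = 0.78 (permutation p = 0.00168 and 0.00077, adjusted p = 0.0207 and 0.0136) and held at 0.71. Dbp gave r = 0.70 and rho = 0.68 (permutation p = 0.00716 and 0.00963, adjusted p = 0.0298 and 0.0388), with 0.63 without the farthest mice and 0.76 with slide means removed. Nr1d2 (r = 0.78, n = 18) and Tef (r = 0.62) also passed, at permutation adjusted p = 0.0298 and 0.046. Without the pair of farthest mice Per1 and Dbp no longer passed (permutation adjusted p = 0.073 and 0.0886), so those calls rest on these mice. Cry2 missed the threshold (r = 0.54, permutation adjusted p = 0.0563), as did Per2 (0.42) and Per3 (0.43), and Bhlhe41 was at -0.14.

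**Figure D2:**
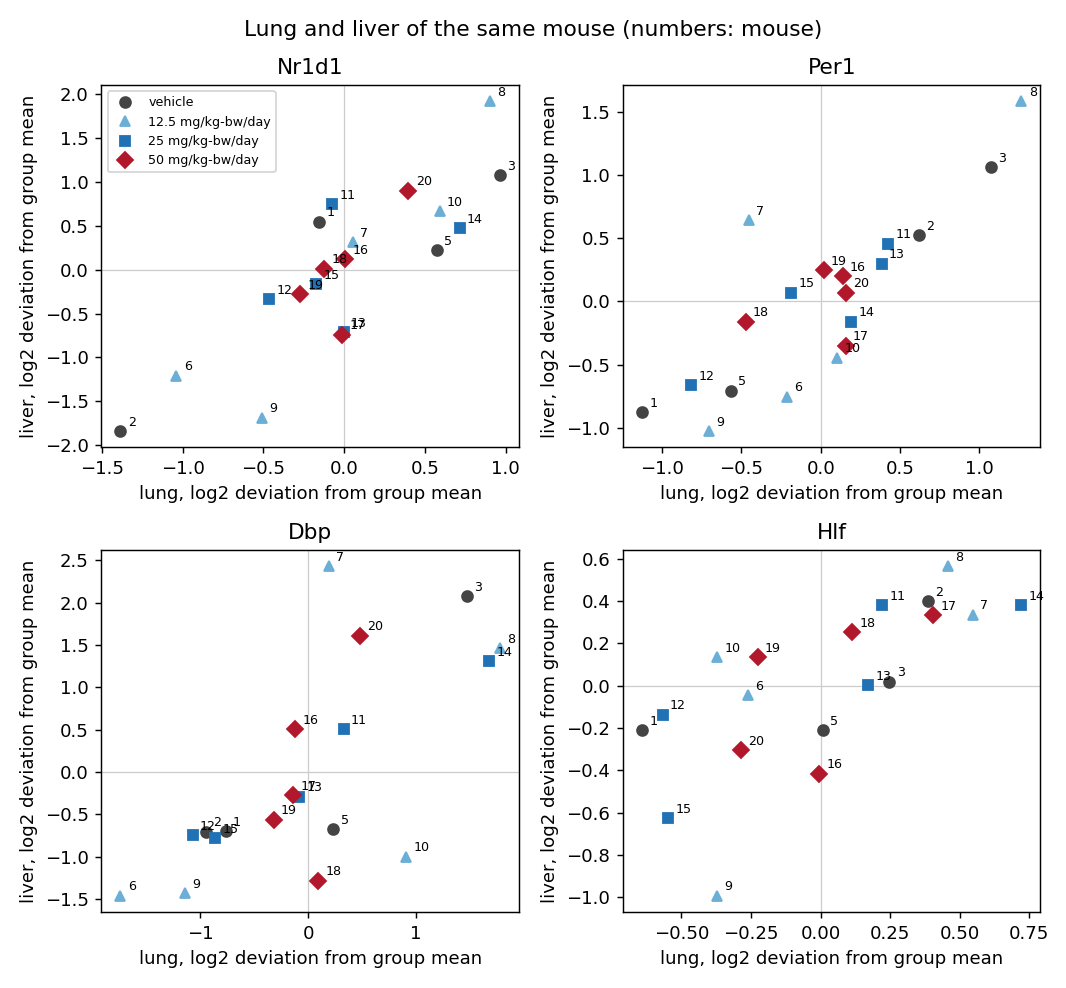
Deviation of each mouse from its dose group mean in lung (x axis, log2) and liver (y axis, log2), 1 numbered point per mouse, coloured by dose, with a panel for each of 4 genes. Points rise from lower left to upper right for Nr1d1 (r = 0.84), Per1 (0.83), Dbp (0.70) and Hlf (0.71).

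Lung and forestomach passed for 4 genes: Per2 (r = 0.79), Per1 (0.77), Nr1d2 (0.77) and Bhlhe41 (0.62). Per2 and Bhlhe41 were each above background on 11 of 19 forestomach arrays, so their relations include background values. For 18 of 19 mice lung and forestomach lay on the same slide. With slide means removed 7 passed, Dbp, Nr1d1, Tef and Per3 among them, while Bhlhe41 went to r = 0.01, and without the pair of mice farthest in lung 0 passed, with r between 0.39 and 0.66 for the 4. Liver and forestomach passed for Per1 (r = 0.77, rho = 0.77, permutation adjusted p = 0.0298 and 0.0406) and Dbp (r = 0.61, rho = 0.56, permutation adjusted p = 0.0298 and 0.0504). Without the pair of mice farthest in liver, Per1 was at 0.75 (permutation adjusted p = 0.0959) and Dbp at 0.69.

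An r above 0.5 was found for 7 of the 10 genes between lung and liver, 6 between lung and forestomach and 5 between liver and forestomach. Of all probes above background, 7.07%, 14.2% and 3.84% reached it. The median r of the genes was 0.66, 0.55 and 0.47, and the median over all probes was 0.10, 0.20 and 0.03. The background depended on the normalization. With arrays only centred on their median the median r over all probes itself was 0.58, 0.74 and 0.56, and 9, 10 and 9 of the genes passed.

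Within each tissue, the genes were also compared with Dbp over the mice, again as deviations from the dose group means; Dbp was taken as the anchor after its spread was seen, and 42 relations were computed with 14 genes in 3 tissues. In lung (n = 20), Nr1d2 followed Dbp most closely, with r = 0.94 and rho = 0.97 (permutation p = 1e-05, the smallest 100000 permutations can give, adjusted p = 0.00014 for both) and 0.94 without the pair of farthest mice. Nr1d1 (r = 0.90), Cry2 (0.87), Per3 (0.85), Tef (0.85), Bhlhe41 (0.69), Per1 (0.65) and Hlf (0.59) also passed, and Per2 did not (0.31, permutation adjusted p = 0.32). Arntl, which encodes the activator BMAL1, ran opposite to Dbp (r = -0.91, rho = -0.91, permutation p = 1e-05, adjusted p = 0.00014 for both), as did Nfil3 (r = -0.77, rho = -0.80, permutation adjusted p = 0.00199 and 0.0021).

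In liver (n = 19) another partner was in front. Tef had r = 0.91 and rho = 0.89 with Dbp (permutation adjusted p = 0.00021 and 0.000756), Arntl r = -0.87 and Nfil3 r = -0.87, and Per3, Nr1d2, Per1, Cry2 and Nr1d1 lay between 0.64 and 0.73. Hlf (0.36), Per2 (0.54) and Bhlhe41 (-0.24) did not pass. In forestomach (n = 19) 8 of the 9 other genes passed, led by Nr1d2 (r = 0.80, rho = 0.77), and Arntl was at -0.69 (rho = -0.67, permutation adjusted p = 0.00663 and 0.00961). Nfil3 was at -0.30 there and did not pass, but was at -0.64 with slide means removed (permutation adjusted p = 0.0184). Clock passed in none of the tissues, though it did in lung once slide means were removed (r = -0.55, permutation adjusted p = 0.034). Npas2 passed in lung (r = -0.58, permutation adjusted p = 0.0186) and, with slide means removed, in liver (r = -0.46, permutation adjusted p = 0.0429). The Npas2 signal did not exceed background on any vehicle liver array. Cry1 did not pass in any tissue, but its probe lay at background on nearly every array. Its signal rose higher only in 1 vehicle lung and 1 lung at 12.5 mg/kg-bw/day, and in no liver or forestomach. A relation of Cry1 to Dbp could therefore not be judged. An r above 0.5 with Dbp was found for 8 of the 9 other genes in lung, 7 in liver and 7 in forestomach. Of all probes above background in at least 50% of the arrays, 5.31%, 0.993% and 4.13% reached it, and 5.25%, 1.54% and 3.15% had an r below -0.5, with a median r of 0.04, -0.01 and 0.05. In lung without vehicle mouse 4 the r with Dbp was 0.94 for Nr1d2, 0.89 for Nr1d1 and -0.90 for Arntl.

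**Figure D3:**
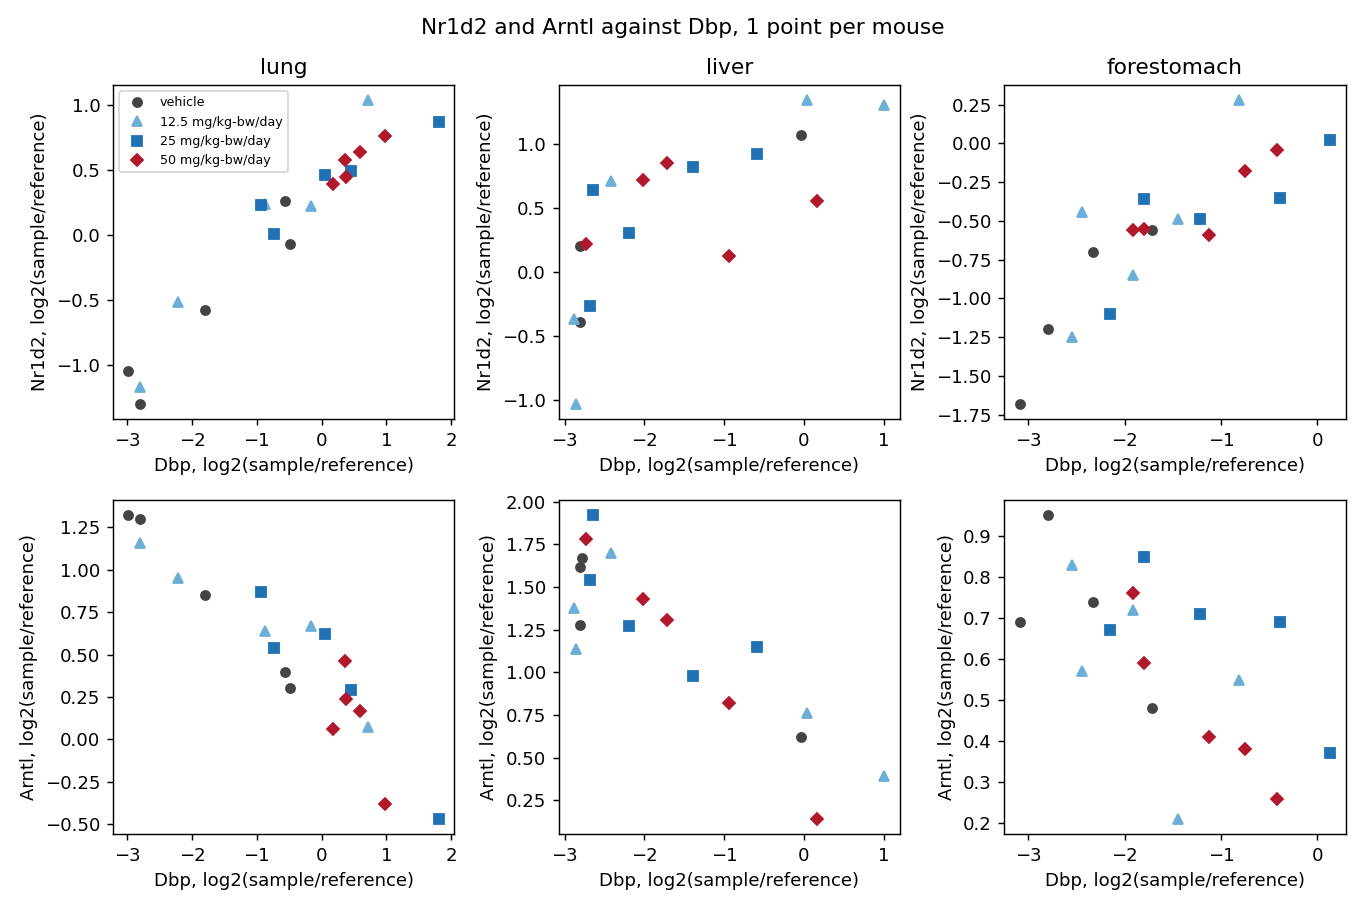
Nr1d2 (upper row) and Arntl (lower row) against Dbp in lung, liver and forestomach, as log2(sample/reference) with 1 point per mouse, coloured by dose. Nr1d2 rises with Dbp and Arntl falls with it in all 3 tissues, most tightly in lung (r = 0.94 and -0.91 after dose group means were removed).

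Over all 58 arrays, centred by tissue, the 10 genes were also compared with their common mean, as a description of points that share arrays and doses. Tef (r = 0.88), Dbp (0.85), Per3 (0.83) and Nr1d2 (0.81) were closest to the mean, and Bhlhe41 was farthest from it (0.12). Each of the 10 genes is itself part of that mean, which raises its r, so these values do not compare with those of other genes. Among 11362 other genes, Usp2, a clock-controlled deubiquitinase gene, was most like it (r = 0.66), followed by Slc5a6 (0.62), Slc43a1 (0.60), Pla2g7 (0.59) and Dclre1a (0.57). Arntl was the most opposed (-0.70), followed by Spon2 (-0.65), Psmb5 (-0.56), H2bc14 (-0.50) and Lbh (-0.50).

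With dose, Dbp and both REV-ERB genes stood highest in the lungs of the 50 mg/kg-bw/day group, where their mice were also close together. Lung Dbp read -2.80, -2.98, -0.56, -0.48 and -1.80 in vehicle mice 1 to 5. It read -2.81, -0.88, 0.71, -2.21 and -0.16 in mice 6 to 10 at 12.5 mg/kg-bw/day, and 0.46, -0.94, 0.05, 1.81 and -0.73 in mice 11 to 15 at 25 mg/kg-bw/day. It read 0.38, 0.36, 0.59, 0.18 and 0.98 in mice 16 to 20 at 50 mg/kg-bw/day. The 50 group lay wholly above the vehicle group, the 25 group overlapped it through mice 12 and 15, and the 12.5 group spanned most of the vehicle range.

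Lung Nr1d1 read -0.71, -1.94, 0.41, 0.81 and 0.02 in vehicle mice and 1.17, 1.15, 1.04, 0.89 and 1.56 at 50 mg/kg-bw/day. Lung Nr1d2 read -1.30, -1.05, 0.26, -0.07 and -0.58 in vehicle mice and 0.45, 0.58, 0.64, 0.39 and 0.76 at 50 mg/kg-bw/day. Both genes, too, were higher in all 5 mice of the 50 group than in any vehicle mouse. At the nearest pair of mice, 0.89 stood against 0.81 for Nr1d1 and 0.39 against 0.26 for Nr1d2.

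**Figure D4:**
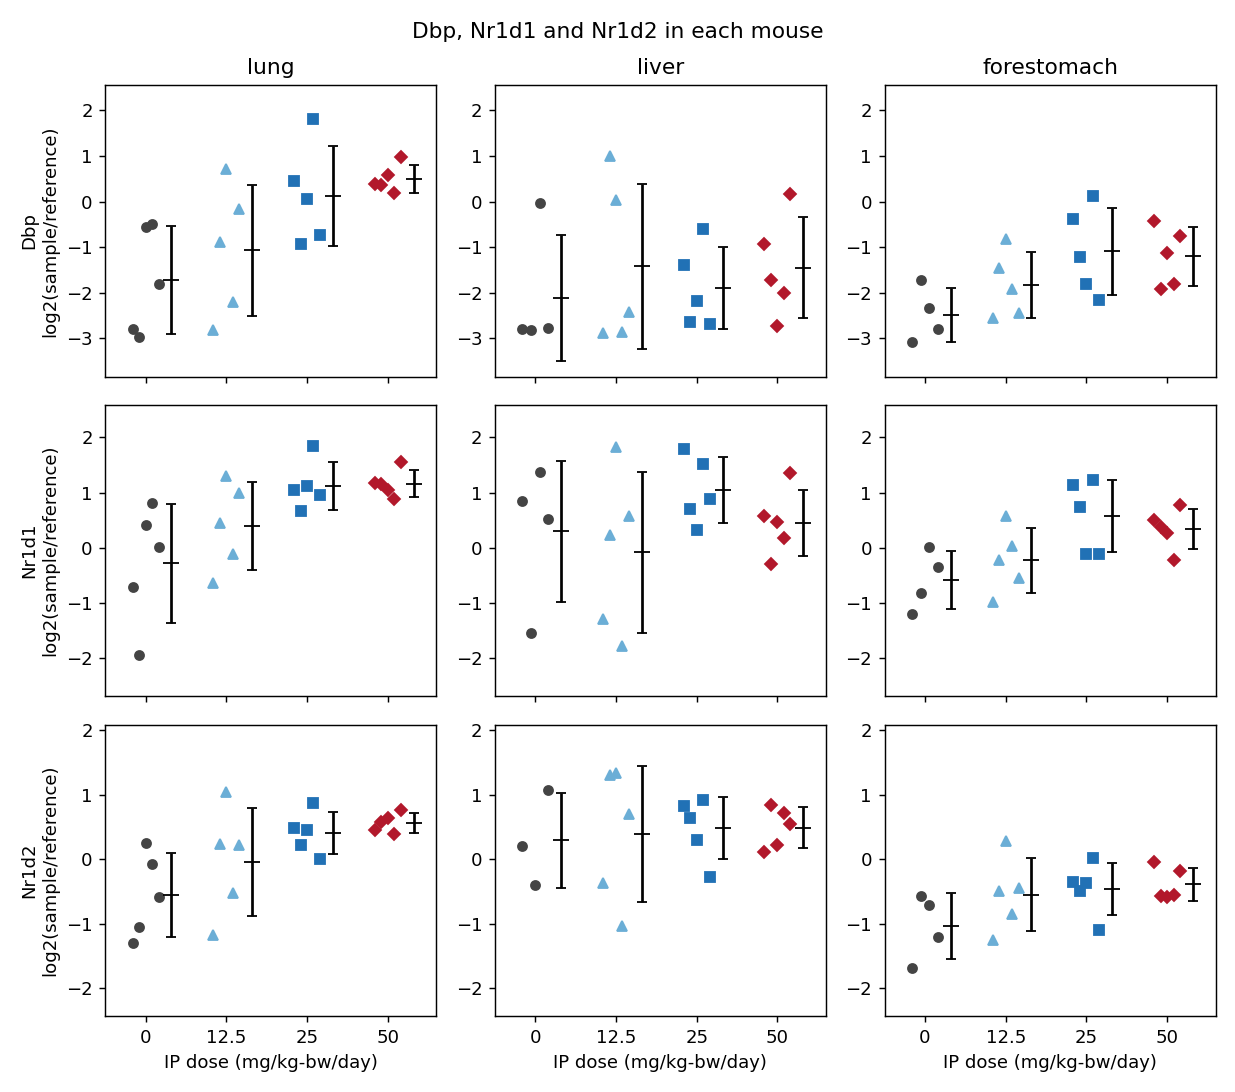
Dbp, Nr1d1 and Nr1d2 (rows) in lung, liver and forestomach (columns) as log2(sample/reference) by dose of IP, with 1 point per mouse and the group mean with SD. In lung the 50 mg/kg-bw/day points lie above every vehicle point for all 3 genes, and in liver the groups overlap.

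The differences between the lung 50 mg/kg-bw/day and vehicle groups were 2.22 on the log2 scale for Dbp (4.67-fold, SE 0.61, limma adjusted p = 0.157), 1.44 for Nr1d1 (2.72-fold, SE 0.40, adjusted p = 0.161) and 1.11 for Nr1d2 (2.16-fold, SE 0.32, adjusted p = 0.173). None was called in this fit, in which 0.079% of all probes were. Each lung slide held mice of all 4 groups, and with the slide as a block the same differences passed, at a limma adjusted p of 0.0393 for Dbp, 0.0323 for Nr1d1 and 0.033 for Nr1d2 (0.278% of all probes called). With the slide as a random block the adjusted p was 0.0352, 0.032 and 0.0336. Without vehicle mouse 4 the differences were 2.53, 1.72 and 1.23 (limma adjusted p = 0.143, 0.107 and 0.18), and with the slide as a block as well, a setting chosen after the data were seen, all 3 still passed at 0.0481, 0.0327 and 0.0452. Groups that did not overlap, with the dose higher, were found for these 3 of the 10 genes and for 1.26% of all probes; the listing of the genes used this contrast, so nothing is read from the count. Dbp's second probe gave 2.45, and the probes had r = 0.99 over the lung arrays.

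At 25 mg/kg-bw/day lung Dbp differed from vehicle by 1.85, Nr1d1 by 1.41 and Nr1d2 by 0.96 (limma adjusted p = 0.437, 0.315 and 0.436, with 0.0126% of all probes called), and all 5 mice were above the vehicle mean for each gene. At 12.5 mg/kg-bw/day the differences were 0.65, 0.68 and 0.51, each with an interval that held 0, and 0% of all probes were called. Thus the point values were larger at 25 and 50 than at 12.5 mg/kg-bw/day, while the 25 and 50 values lay within 1 SE of each other.

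The other PAR bZIP factors and period genes showed smaller values at 50 mg/kg-bw/day in lung. Per3, the period gene with D-boxes in its window, differed by 0.47 (95% interval 0.05 to 0.90) and Tef by 0.45 (0.01 to 0.89), with all 5 mice above the vehicle mean for both, and limma adjusted p = 0.498 and 0.549. Hlf differed by -0.03, Bhlhe41 by -0.17, Cry2 by -0.21 and Per2 by -0.32. The other Bhlhe41 probe gave 0.15 and was above background on 10 of 20 lung arrays, so the sign for Bhlhe41 depends on the probe. Between the Bhlhe41 probes r was 0.65 in lung, 0.28 in liver and 0.59 in forestomach, so its relations to other values also rest on the probe used. Per1 differed by -0.64 (95% interval -1.44 to 0.17, limma adjusted p = 0.715), with 0 of 5 mice above the vehicle mean. The 50 group of Per1 read 0.26, 0.28, -0.35, 0.14 and 0.28, inside the vehicle range of -0.56 to 1.64. By the brightest probe of each gene, 5 of the 10 genes had values above 0, as 50.2% of all probes did. The median of the 10 was 0.21 against 0 over all probes. At an unadjusted p under 0.05 limma placed 0, 4 and 5 of the genes in lung from the lowest to the highest dose, against 3.92%, 6.53% and 8.8% of all probes. The genes were listed with these differences known, so nothing is read from these counts or from those for the other tissues below.

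**Figure D5:**
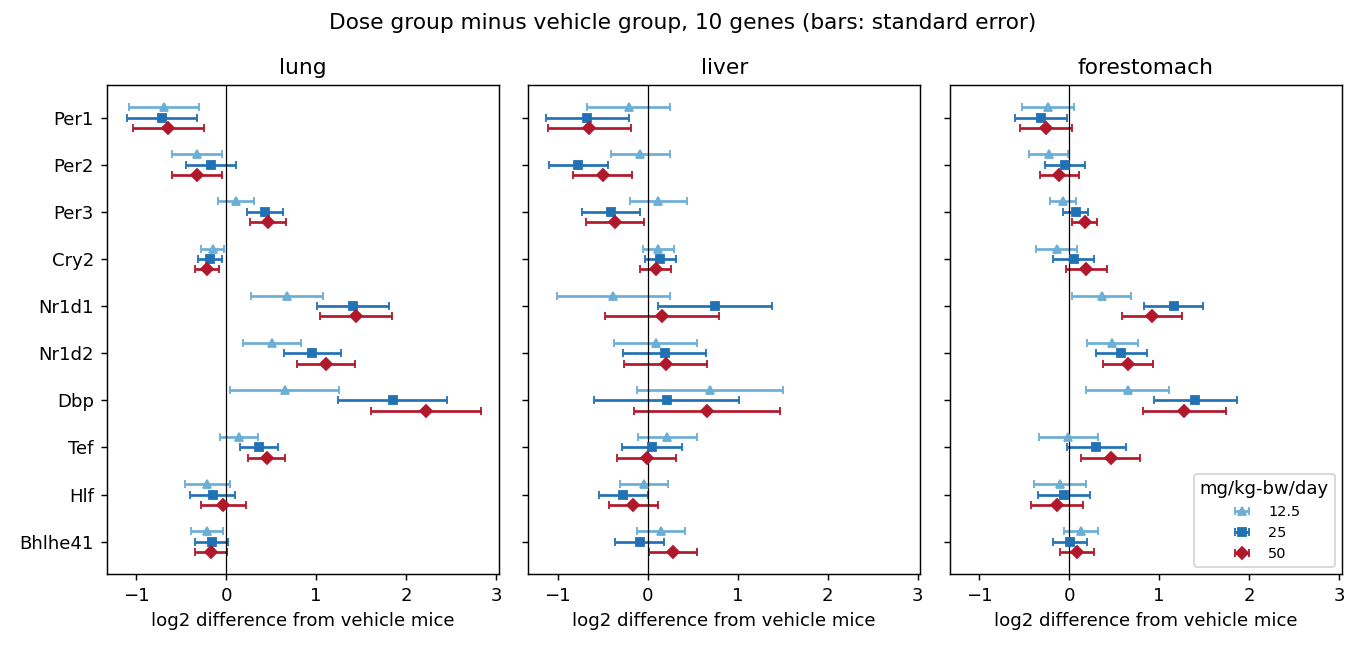
Difference of each dose group from vehicle (x axis, log2) for the 10 genes (y axis) in lung, liver and forestomach, with 1 point per dose of IP and standard errors as bars. Dbp, Nr1d1 and Nr1d2 reach 2.22, 1.44 and 1.11 at 50 mg/kg-bw/day in lung, while most liver values have bars that cross 0.

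In forestomach, the tissue that the gavage reaches first, Dbp read -3.09, -1.72, -2.33 and -2.80 in vehicle mice 1, 2, 3 and 5 and -0.42, -1.91, -1.13, -1.80 and -0.75 in mice 16 to 20. All 5 mice at 50 mg/kg-bw/day were above the vehicle mean, with mice 17 and 19 inside the vehicle range. From the lowest to the highest dose the Dbp differences were 0.65, 1.40 and 1.28, those of Nr1d1 0.36, 1.16 and 0.92, and those of Nr1d2 0.48, 0.58 and 0.65. None was called, as for all probes (0%), with limma adjusted p between 0.977 and 1. The glandular stomach marker mean had a median of 6.16 in the vehicle forestomachs and of 1.70, 2.00 and 4.69 in the dose groups, with 0 of the 5 markers called by limma. The liver marker mean in the same forestomachs had a median of 2.66 in vehicle mice and of 1.31, 1.46 and 2.02 in the dose groups. The part of either tissue in the forestomach values was not tested. At an unadjusted p under 0.05 limma placed 0, 2 and 3 of the 10 clock genes (4.12%, 3.6% and 3.89% of all probes).

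In liver Dbp differed from vehicle, from the lowest to the highest dose, by 0.69, 0.21 and 0.66 and Nr1d1 by -0.38, 0.75 and 0.16, with SEs of 0.81 and 0.63. None of the 10 genes was called at any dose in liver (0% of all probes), and at an unadjusted p under 0.05 limma placed 0, 1 and 0 (2.6%, 4.44% and 6.87% of all probes). That 1 gene was Per2 at 25 mg/kg-bw/day. It read 0.08, 1.07, 0.67 and 0.19 in vehicle livers and -0.26, -0.30, -0.26, 0.07 and -0.57 at 25 mg/kg-bw/day, all below the vehicle livers (as for 1.24% of all probes), a difference of -0.77 (95% interval -1.45 to -0.08, limma adjusted p = 0.904). At 50 mg/kg-bw/day it differed by -0.50 and overlapped the vehicle range.

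Whether the 50 mg/kg-bw/day difference itself varied with the tissue was tested in the joint limma fit. For Dbp, lung exceeded liver by 1.57 (95% interval -0.37 to 3.50, adjusted p = 0.775) and forestomach by 0.94 (-0.99 to 2.88, adjusted p = 1). For Nr1d1 the lung to liver value was 1.29 (-0.12 to 2.70, adjusted p = 0.743), and for Per3 it was 0.83 (0.13 to 1.53, adjusted p = 0.64), where Per3 was above background in only 1 of 4 vehicle livers and 2 of 5 livers at 50 mg/kg-bw/day. Of the 10 genes 0 were called in any of the 3 tissue pairs. Of all probes, 0.0108% were called with the larger value in lung and 0.00539% with the larger in liver, 0.00898% and 0.00539% for lung and forestomach, and 0.0018% each way for liver and forestomach. At an unadjusted p under 0.05 limma placed 1 of the 10 genes, Per3, between lung and liver and 0 in the other pairs, where 7.08% of all probes were placed for lung minus liver, 2.91% for lung minus forestomach and 6.17% for liver minus forestomach. The tissues were therefore not shown to differ, and these intervals leave room for lung and liver differences in Dbp of up to 3.50 log2 units.

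Other genes of the clock were read from a list of 16: in lung at 50 mg/kg-bw/day 0 were called higher and 1 lower, with a median of -0.06 against 0 over all probes. The 1 gene was Nfil3, the D-box competitor of the PAR bZIP factors and a REV-ERB target. Its lung mean fell from -0.76 ± 0.40 (SD, n = 5) in vehicle mice to -1.68 ± 0.19 (n = 5), a difference of -0.91 (SE 0.18, limma adjusted p = 0.0317, and 0.00129 with the slide as a block). The call was lost without vehicle mouse 1, 2 or 5 or mouse 17, 18, 19 or 20 of the 50 group; over the 20 mice left out in turn the limma adjusted p lay between 0.0235 and 0.105. It was -0.44 in liver and -0.66 in forestomach at the same dose, neither called. Arntl was 0.83 ± 0.48 in vehicle lungs and 0.11 ± 0.31 at 50 mg/kg-bw/day, a difference of -0.73 (limma adjusted p = 0.297). Npas2 (-0.38) and Clock (-0.27) were not called either. Liver and forestomach had 0 limma calls in the list at any dose, with 0, 1 and 2 of the 16 in liver and 1 at each dose in forestomach at an unadjusted p under 0.05. In lung limma placed 3, 4 and 6 of the 16 there from the lowest to the highest dose, against 3.92%, 6.53% and 8.8% of all probes. This list, too, was written with earlier results of these data known, so nothing is read from its counts.

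Of 10 listed clock-controlled and PAR bZIP target genes 9 were measured, and limma called 0 at any dose in any tissue, with at most 2 of 9 at an unadjusted p under 0.05. Their median lung difference at 50 mg/kg-bw/day was -0.10, with 3 above 0 and 6 below. Their detection in lung is not given here, so whether targets of Dbp followed it in lung cannot be judged from this median.

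Several other measures also had different ranges in the vehicle and 50 mg/kg-bw/day lungs. Per1 is also a glucocorticoid-induced gene, and Tsc22d3 (GILZ), another such gene, read 1.84, 3.80, 3.34, 3.52 and 2.04 in vehicle mice 1 to 5, where Per1 was highest in mice 2, 3 and 4 as well; Tsc22d3 lay between 1.77 and 2.16 at 50 mg/kg-bw/day. The mean of 8 glucocorticoid-responsive genes ranged from -0.44 to 0.94 in vehicle lungs (median 0.65) and from -0.28 to 0.12 at 50 mg/kg-bw/day (median -0.15). Its median was -0.20 at 12.5 mg/kg-bw/day and -0.01 at 25 mg/kg-bw/day, beside Dbp differences of 0.65 and 1.85. Limma called 0 of the 8 at 50 mg/kg-bw/day (2 at an unadjusted p under 0.05).

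Markers of neighbouring tissues differed between the same lung groups. The mean of 4 brown fat markers ranged from 0.53 to 2.69 in vehicle lungs and from 0.21 to 0.91 at 50 mg/kg-bw/day, and 1 of the 4, Ucp1, was called lower (-3.05, limma adjusted p = 0.0164; not called without vehicle mouse 2 or without mouse 18 or 19, at most 0.0632). The 5 white fat markers ranged from 1.30 to 4.34 against 0.86 to 2.25, the 5 heart muscle markers from 2.00 to 4.12 against 0.45 to 2.74, and the 3 B cell markers from 0.03 to 1.37 against 1.41 to 1.78, with 0 called in these 3 lists (3, 0 and 2 at an unadjusted p under 0.05). The brown fat mean had a median of 2.46 in vehicle lungs and of 0.67, 0.70 and 0.61 from the lowest to the highest dose. The part of these tissues in the lung values of Dbp, Nr1d1 and Nr1d2 was not tested. Position of the array on the slide followed the dose on all lung and forestomach arrays and on all liver arrays but those of mice 9 and 14, and its part cannot be told apart from the dose.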

How the data were processed

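Total RNA of individual mice was hybridized to 2-colour Agilent 8x60K mouse arrays against a common reference RNA, Cy5 for the sample and Cy3 for the reference. The authors deposited the scanner output of each array, in which the median signal intensity per spot is not normalized; per the file headers it was made with Feature Extraction 10.7.3.1 (lung, forestomach) or 11.0.1.1 (liver). The deposited log10 ratio of the scanner software and the authors' normalized log2 value table served as alternatives only. In the value table the liver probe names did not match the scanner values, so it was used for lung and forestomach.

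Here log2(Cy5/Cy3) of median signals was loess-normalized within each array without background subtraction, control spots and outlier-flagged spots were left out, and spots of a probe were averaged. The 10 genes are those whose probe accession maps to them in RefSeq, each by its brightest probe. The members and lists were chosen with earlier results of these data known. Each tissue was fitted in limma 3.58.1 (R 4.3.3, statmod 1.5.0), and all 58 arrays jointly for tissue contrasts, on 55681 probes with Benjamini-Hochberg adjustment over all of them; a call needed an adjusted p of 0.05 and 1.5-fold (no fold limit for effect differences). Relations between tissues used 100000 permutations of mice within dose groups, two-sided. The steps were tested on simulated data. Further genes named came from written lists (clock pathway, targets, glucocorticoid-responsive genes, tissue and cell markers) and from the 5 most and 5 least alike genes.

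Mouse numbers in the titles pair the tissues of one animal. Arrays of the same mouse correlated over probes with a median r of 0.10 (lung and liver), 0.19 (lung and forestomach) and 0.05 (liver and forestomach) after group means were removed. Arrays have no read depth; 5 mice or fewer per group limit the precision. Markers of lung, liver, forestomach, glandular stomach, brown and white fat, heart and B cells are given with the results. In lung at 50 mg/kg-bw/day skeletal muscle (4 genes, median -0.14), mesothelium (3 genes, -0.87) and T cell markers (3 genes, 0.16) had 0 calls by limma, with 0, 1 and 0 genes at an unadjusted p under 0.05. Alternatives covered normalization, background, reference channel, scanner ratio, value table, flagged spots, dim probes, spread model, slide, fitted groups, threshold, probe choice, mouse block and single mice.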

Additional observations from a re-analysis of the deposited data

Results flagged for a closer look

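Of 119 groups of 4 or 5 mice tested for the 10 genes, 4 held a mouse far from the rest, by the gap to its nearest group mate over the range of the group; chance flags about 1 in 20 groups. Liver Dbp of vehicle mouse 3 read -0.03, with the next vehicle liver at -2.78. Lung Per1 of mouse 18 at 50 mg/kg-bw/day read -0.35, with the next mouse at 0.14. Lung Tef of mouse 20 at 50 mg/kg-bw/day read 1.99, with the next at 1.42. Liver Cry2 of mouse 14 at 25 mg/kg-bw/day read 1.31, with the next at 1.04.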

How the results depend on the processing

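No called direction reversed; of the values not called, lung Cry2 at 50 mg/kg-bw/day went from -0.21 to 0.05 with arrays centred on their median. The number of the 10 genes called in lung at 50 mg/kg-bw/day was 0, but 3 with the slide as a block 3 with it as a random block, and 3 with each of these blocks without vehicle mouse 4, a pair of settings chosen after the data were seen; leaving out each mouse in turn without a block kept it at 0, with a limma adjusted p for Dbp, Nr1d1 and Nr1d2 between 0.0904 and 0.371. Over all 35 alternatives the adjusted p ranged from 0.0342 to 0.97 for Dbp and the difference from 1.91 to 2.53. Lung Per3 at that dose was 0.93 with the scanner's ratio, against 0.47. Dose counts in the other comparisons stayed at 0. For liver against forestomach in vehicle mice, the 4 calls became 0 with arrays centred on their median and ranged from 1 to 6 when each vehicle mouse was left out; lung against liver ranged from 3 to 4 and lung against forestomach stayed at 4. The relations that passed between lung and forestomach were 10 with median centring, 7 with slide means removed and 0 without the pair of farthest mice, against 4, and between liver and forestomach 9 with median centring, against 2. The cause was not tested. The mouse as a replicate block changed no call (consensus correlation 0.05; for Hlf, liver minus forestomach 1.40, limma adjusted p = 9.74e-05). The background alternative used normexp on the median signals with an offset of 50, since mean signals were not used here. Dim Per2, Per3 and Bhlhe41 signals limit their values in liver and forestomach.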

Other observations

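In liver, the clock-controlled and PAR bZIP target genes had values below vehicle at 25 mg/kg-bw/day for all 9 measured genes, with a median of -0.53 against -0.01 over all probes, and for 8 of 9 at 50 mg/kg-bw/day, with a median of -0.40. Cyp7a1, the rate-limiting enzyme of bile acid synthesis, was at -2.13 and Alas1, the first enzyme of heme synthesis, at -1.80 at 25 mg/kg-bw/day. Limma called 0 of the 9 at either dose (lowest adjusted p = 0.904 and 0.727). At an unadjusted p under 0.05 limma placed 2 and 0 of them, against 4.44% and 6.87% of all probes. These genes are given because their values stood out after they were seen. Dbp in the same livers was 0.21 and 0.66 above vehicle. Of the 6 liver markers, 5 were also below vehicle at 25 mg/kg-bw/day (median -0.10) and 6 at 50 mg/kg-bw/day (median -0.35). Whether the target genes shifted more than the liver markers was not tested.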
